A study of Homo sapiens with 8 samples.

Results

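The RAS and MAP kinase pathway was followed through 38 genes, from RAS and its adaptors to the kinases and the proteins that switch them off, in chromatin immunoprecipitation (ChIP) peak lists of OPM-2 cells. OPM-2 is an established human multiple myeloma cell line. The genes were taken by name, and the peaks counted were those that overlapped the gene body or 5 kb on either side (the locus), on genome build hg38. Peaks within 1 kb of either annotated end of a gene were also counted apart and are called gene-end peaks. All 38 symbols were found among the 19974 protein-coding genes on chromosomes 1 to 22 and X. The cells had been exposed for 72 h to 1 µM all-trans retinoic acid (ATRA), to 1 µM pomalidomide (POM), to both compounds (ATRA+POM), or to the solvent DMSO. Each treatment had 1 ChIP library and 1 input library, and the 4 lists of ChIP peaks were used here. There were no replicates, so no difference below carries a test, and the labels do not name the antibody.

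RAS proteins are switches at the cell membrane: receptors recruit the adaptors SHC1 and GRB2, which bring the exchange factors SOS1 and SOS2 to load RAS with GTP. Loaded RAS starts a relay of RAF or other MAP3K kinases, MAP2K kinases and MAP kinases (ERK, JNK and p38), which phosphorylate transcription factors and other targets. NF1 speeds the return of RAS to its inactive state, SPRY and SPRED proteins block the pathway upstream, and DUSP phosphatases remove the activating phosphates from MAP kinases, several of them as transcriptional targets of the same pathway. Activating RAS mutations are common in myeloma, ATRA is the ligand of retinoic acid receptors, and POM redirects the cereblon ubiquitin ligase to IKZF1 and IKZF3.

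Promoter sequences of 4 of the genes are printed because the results turn on their starts: MAP2K4, MAP2K6 and NF1 had a DMSO peak there that was missing in the ATRA+POM list, and DUSP6 had the highest fold enrichment of all 38 genes in DMSO. The sequences are from RefSeq (GRCh38.p14), run 5′ to 3′ along the gene, and hold the 250 bases before the start and the 50 bases after it. Capitals mark the bases that lay inside a peak of the DMSO list. They come from chr17:12020627-12020926 on the plus strand for MAP2K4, chr17:69414447-69414746 on the plus strand for MAP2K6, chr17:31094727-31095026 on the plus strand for NF1, and chr12:89352452-89352751 on the minus strand for DUSP6.
MAP2K4: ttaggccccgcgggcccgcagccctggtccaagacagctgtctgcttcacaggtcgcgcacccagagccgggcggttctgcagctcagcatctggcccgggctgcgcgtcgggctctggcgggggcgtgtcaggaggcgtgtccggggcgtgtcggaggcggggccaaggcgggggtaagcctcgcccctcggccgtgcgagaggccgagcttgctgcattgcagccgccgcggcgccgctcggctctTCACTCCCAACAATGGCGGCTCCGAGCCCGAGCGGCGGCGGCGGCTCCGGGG
MAP2K6: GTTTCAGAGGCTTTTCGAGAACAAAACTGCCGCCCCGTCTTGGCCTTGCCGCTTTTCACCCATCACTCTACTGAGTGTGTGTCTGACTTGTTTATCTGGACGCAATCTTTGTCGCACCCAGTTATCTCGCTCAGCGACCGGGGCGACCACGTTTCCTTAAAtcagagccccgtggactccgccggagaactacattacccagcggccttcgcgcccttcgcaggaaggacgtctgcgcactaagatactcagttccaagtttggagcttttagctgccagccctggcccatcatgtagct
NF1: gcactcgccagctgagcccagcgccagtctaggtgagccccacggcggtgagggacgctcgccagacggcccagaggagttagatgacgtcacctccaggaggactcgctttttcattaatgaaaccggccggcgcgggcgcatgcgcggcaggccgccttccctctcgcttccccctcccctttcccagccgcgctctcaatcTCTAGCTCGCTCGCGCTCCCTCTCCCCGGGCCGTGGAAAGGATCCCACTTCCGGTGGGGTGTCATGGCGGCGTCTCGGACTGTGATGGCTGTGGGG
DUSP6: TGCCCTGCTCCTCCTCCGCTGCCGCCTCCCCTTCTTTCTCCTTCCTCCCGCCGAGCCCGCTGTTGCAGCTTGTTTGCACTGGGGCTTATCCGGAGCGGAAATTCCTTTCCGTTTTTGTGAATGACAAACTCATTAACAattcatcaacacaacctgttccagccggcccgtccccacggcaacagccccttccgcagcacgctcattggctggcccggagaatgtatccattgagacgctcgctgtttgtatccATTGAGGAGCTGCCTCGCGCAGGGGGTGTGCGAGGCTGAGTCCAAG
In MAP2K4 the DMSO peak covered 52 of the 300 bases, and in NF1 it covered 96, in each case including the start. In MAP2K6 the peak covered 161 bases and ended upstream of the start. The DUSP6 promoter had 184 covered bases in a pair of peaks, with the start itself in the gap between them.

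The lists held 36742 peaks for the library labelled ATRA, 54279 for POM, 47193 for ATRA+POM and 50946 for DMSO. Each peak carries the authors' fold enrichment, the ratio of the summit to a local background. Whether that background came from the ChIP library or from its input was not given. The number of reads at the summit could be worked out from the fold enrichment and the p-value. Median summit reads were 23 in the ATRA-labelled list, 72 in POM, 65 in ATRA+POM and 78 in DMSO. The background values gave POM and ATRA+POM a depth of 0.927 and 0.902 relative to DMSO, and the ATRA-labelled library one of 0.133. Overlapping peaks from the 4 lists were joined into regions, and 115 of 25210 ATRA-labelled regions, or 0.456%, were absent from the DMSO list. The ATRA-labelled list was thus nearly a part of the DMSO list at low depth, and a peak missing from it cannot be told apart from a peak too weak for its depth. As a check of the cells, 8, 8, 8 and 9 of 9 plasma cell and myeloma marker genes had a gene-end peak in the ATRA-labelled, POM, ATRA+POM and DMSO lists, and 1, 2, 2 and 1 of 8 markers of other cell types did. FGFR3 was the myeloma marker with no gene-end peak outside DMSO, and HBB was the other-type marker with one in every list.

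Most of the 38 genes carried peaks in every treatment. A gene-end peak was present at 30 of the 38 genes in the ATRA-labelled list, 33 in POM, 29 in ATRA+POM and 36 in DMSO. Among all protein-coding genes the shares were 40.0% in the ATRA-labelled list, 47.9% in POM, 41.3% in ATRA+POM and 48.8% in DMSO. There were 28 of the 38 genes, or 73.7%, with a gene-end peak in all 4 lists, against 37.3% of all genes. Without the ATRA-labelled list, 29 pathway genes had one in all 3 other lists, against 40.3% of all genes. Peaks per locus averaged 3.55 in the ATRA-labelled list, 4.05 in POM, 4.11 in ATRA+POM and 4.05 in DMSO, against 1.75, 2.25, 1.99 and 2.19 over all genes in that same order of lists. The pathway genes were also longer than most, with a median of 32166 bp against 24170.5 bp over all genes, and the part of gene length in these counts was not tested.

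No pathway gene had a gene-end peak in a treated list that was missing in DMSO, and HRAS and MAPK11 were the 2 that could have gained one. Over all genes without a DMSO gene-end peak, 0.0685% had one in the ATRA-labelled list, 3.79% in POM and 1.75% in ATRA+POM. In the other direction, 6 of 36 DMSO gene-end peaks (16.7%) were missing in the ATRA-labelled list (MAP2K4, MAPK9, MAPK14, MAPK13, NF1 and SPRY4), where the background over all genes was 18.2%. In POM 3 of 36 (8.33%) were missing (MAP2K4, MAPK9 and MAPK13), against a background of 5.93%. In ATRA+POM 7 of 36 (19.4%) were missing (MAP2K2, MAP2K4, MAP2K6, MAPK9, MAPK13, NF1 and SPRY4), against 17.3%. ATRA+POM set against POM lacked 4 of 33, or 12.1% (MAP2K2, MAP2K6, NF1 and SPRY4), with a background of 14.5%, and had none that POM lacked, with a background of 0.653%. Set against the ATRA-labelled list, ATRA+POM lacked 2 of 30 (MAP2K2 and MAP2K6, background 6.59%) and had 1 more (MAPK14, background 6.60%). The shares of pathway genes with a missing peak stood within 3 percentage points of the background in each comparison with DMSO or POM.

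**Figure D1:**
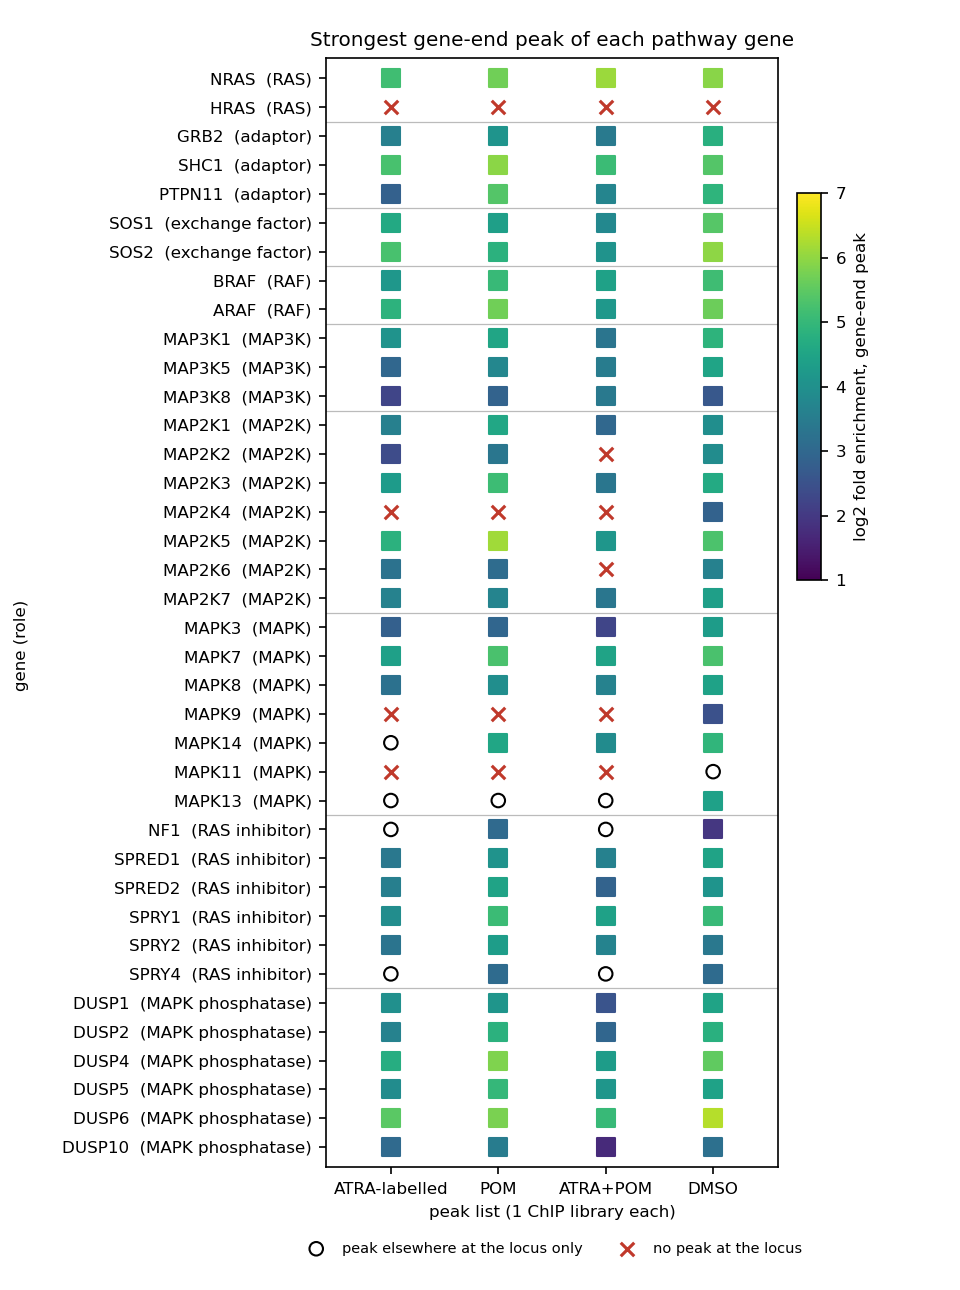
Log2 fold enrichment (colour) of the strongest peak at either end of each of the 38 genes (rows, with their role) in the 4 peak lists (columns, 1 ChIP library each). Squares are called gene-end peaks, open circles are genes with a peak elsewhere at the locus only and crosses are genes with none. Filled squares run across all 4 columns for 28 genes, and the gaps fall mainly among the MAP2K and MAPK rows.

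At the top of the pathway, the 2 RAS genes differed from each other. NRAS had 8 peaks at its locus in the ATRA-labelled list, 8 in POM, 5 in ATRA+POM and 4 in DMSO, and its start region had a fold enrichment of 35.8, 24.1, 31.3 and 60.9 in those lists. At the other end of NRAS the fold was 34.5 in the ATRA-labelled list, 52.1 in POM, 67.9 in ATRA+POM and 45.7 in DMSO, so the list with the highest value differed between the 2 ends. NRAS was the pathway gene with the highest fold in ATRA+POM. HRAS had no peak in any list within 5 kb, and signal too weak to be called cannot be seen in lists of called peaks.

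The adaptors and exchange factors were called in every list. GRB2, which links receptors to SOS, had a strongest fold of 12.1 in the ATRA-labelled list, 17.1 in POM, 11.0 in ATRA+POM and 27.4 in DMSO. PTPN11, the phosphatase SHP2 that relays receptor signals to RAS, had 7.19, 42.1, 13.2 and 29.8 in the same order. That region is also at an annotated end of RPL6. For neighbouring genes, here and below, either annotated end counted, and a start was not told apart from a far end. The start of SHC1 lies in a region that is also at an annotated end of CKS1B. The fold there was 37.9 in the ATRA-labelled list, 61.9 in POM, 34.0 in ATRA+POM and 30.3 in DMSO. That region held 290 summit reads in the ATRA-labelled list, 1564 in POM, 1049 in ATRA+POM and 2002 in DMSO. At the far end of SHC1, shared with an annotated end of PYGO2, the fold was 26.2, 57.6, 33.9 and 41.9 in the same order. The SOS1 locus had 6, 7, 10 and 7 peaks, and its gene body held a broad region 29.9 kb from the start with a fold of 38.8, 31.9, 18.4 and 49.8. SOS2 had its highest fold at the far end of the gene, in a region also at an annotated end of VCPKMT. The values were 38.3 in the ATRA-labelled list, 28.3 in POM, 16.9 in ATRA+POM and 63.0 in DMSO. A flank peak of SOS2 118 kb from its start was called in the ATRA-labelled list with 14 summit reads and in DMSO with 118, and in neither list with POM.

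Both RAF genes had a gene-end peak in all lists. BRAF had a fold of 18.0 in the ATRA-labelled list, 33.1 in POM, 21.8 in ATRA+POM and 35.0 in DMSO, and ARAF had 28.9, 52.0, 15.5 and 50.1 just upstream of its start. ATRA+POM was below POM and DMSO at both genes. Fold enrichments in the ATRA+POM list were lower in general: over all regions shared with DMSO the median log2 ratio was -0.56, and over the 90 shared pathway regions it was -0.91. For POM against DMSO the medians were 0.08 over all shared regions and -0.02 over 105 pathway regions, and for the ATRA-labelled list they were -0.42 and -0.54 over 80.

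Among the other MAP3K genes, MAP3K5 (ASK1, a stress-activated kinase upstream of JNK and p38) held the most peaks of the 38 genes in every list, tied with SPRED2 in DMSO, with 15 in the ATRA-labelled list, 18 in POM, 20 in ATRA+POM and 14 in DMSO. A broad gene-body site 75.5 kb from the start, chr6:136716089-136721371, was strong in every list, with a fold of 46.5, 57.2, 38.7 and 54.8. Between 120 kb and 232 kb from the start, the ATRA-labelled list had no peak and DMSO had 3, with 30 to 58 summit reads, while POM and ATRA+POM had more. A region 183 kb from the start had 175 summit reads in POM and 57 in ATRA+POM and was called in neither other list. Another at 137 kb had 79 in POM and 131 in ATRA+POM. At 231 kb the fold was 20.0 in POM and 7.57 in ATRA+POM, against 3.62 in DMSO. The opposite order was seen 51.0 kb from the start, chr6:136741371-136743075, where the fold was 22.1 in the ATRA-labelled list, 5.24 in POM, 4.10 in ATRA+POM and 34.3 in DMSO. One region 20.4 kb from the start was called in DMSO alone, with 105 summit reads.

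MAP3K1 (MEKK1, a JNK pathway kinase) had a gene-end peak in every list and 4, 5, 5 and 7 peaks at its locus. A region in its gene body, chr5:56852514-56853130, had 186 summit reads in POM and 325 in ATRA+POM, against 57 in DMSO, and none was called in the ATRA-labelled list. The fold there was 11.0 in POM and 23.3 in ATRA+POM, against 3.12 in DMSO. MAP3K8 (TPL2, which activates MAP2K1 in inflammatory signalling) had its strongest peak 2.85 kb from the start, with a fold of 27.2 in the ATRA-labelled list, 26.1 in POM, 13.1 in ATRA+POM and 31.8 in DMSO. Its region at 22.6 kb had 103 summit reads in POM, 35 in ATRA+POM and 79 in DMSO, and was not called in the ATRA-labelled list.

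The MAP2K kinases held 3 of the 7 gene-end peaks missing in ATRA+POM, and several regions called only with POM. Gene-end peaks were present at 6 of the 7 genes in the ATRA-labelled list, 6 in POM, 4 in ATRA+POM and 7 in DMSO. Over all genes, 17.3% of DMSO gene-end peaks were missing in ATRA+POM, and 7 genes are too few to set against that share. MAP2K4, a kinase of JNK and p38, had no peak in the ATRA-labelled, POM and ATRA+POM lists, against a single peak in DMSO, at its start, with a fold of 7.28 and 49 summit reads. At the relative depths above, 49 reads would correspond to 6.50 reads in the ATRA-labelled list, 45.4 in POM and 44.2 in ATRA+POM, where the lowest called summits had 5, 11 and 11 reads. MAP2K6, a p38 kinase, had 1 peak just upstream of its start, with 15 summit reads in the ATRA-labelled list, 53 in POM and 73 in DMSO, and none in ATRA+POM. Its ATRA-labelled value would scale to 102 reads at the depth of ATRA+POM, but it rests on 15 reads of the shallowest library. The 53 reads in POM and 73 in DMSO, from libraries of nearer depth, would scale to lower values. MAP2K2 (MEK2, an ERK kinase) had 1 peak in the ATRA-labelled list, 4 in POM, 0 in ATRA+POM and 3 in DMSO. The peak at its start had a fold of 5.21 in the ATRA-labelled list, 10.2 in POM and 14.9 in DMSO, so it was weak where it was called. MAP2K3, the other main p38 kinase, had 4, 2, 6 and 2 peaks, with a region 35.1 kb from its start called in POM with 37 reads and in ATRA+POM with 91. MAP2K7, a JNK kinase, had a fold of 12.6 in the ATRA-labelled list, 13.1 in POM, 5.57 in ATRA+POM and 20.7 in DMSO just upstream of its start.

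MAP2K1 (MEK1, an ERK kinase) had 2 peaks in the ATRA-labelled list, 9 in POM, 8 in ATRA+POM and 3 in DMSO. All ATRA-labelled and DMSO peaks lay within 3 kb of the start. Of their regions, those at the start are also at an annotated end of TIPIN. Farther in, a region 14.5 kb from the start had 62 summit reads in POM and 105 in ATRA+POM, and lies by a second RefSeq start of the gene. At 24.6 kb there were 127 reads in POM and 56 in ATRA+POM, and at 24.3 kb 110 reads in POM alone. MAP2K5, the kinase of MAPK7, had 1, 7, 4 and 6 peaks. Its start peak had a fold of 28.4 in the ATRA-labelled list, 71.1 in POM, 17.9 in ATRA+POM and 39.5 in DMSO. A pair of gene-body regions, chr15:67741113-67741509 and chr15:67741561-67741869, had 178 and 210 summit reads in POM and 94 and 105 in ATRA+POM, and no peak in DMSO or in the ATRA-labelled list. At the depth of DMSO, 178 and 210 reads would be 192 and 226, well above its lowest called summit of 13 reads. DMSO in turn had 3 gene-body peaks at MAP2K5 that no other list had, with 24 to 81 reads.

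Of the MAP kinases, MAPK3 (ERK1), MAPK7 (ERK5) and MAPK8 (JNK1) had a gene-end peak in all lists. MAPK3 had a fold of 7.01 in the ATRA-labelled list, 7.71 in POM, 4.71 in ATRA+POM and 19.7 in DMSO. MAPK7 had 21.1, 38.7, 22.3 and 38.9 at a region shared with an annotated end of B9D1. The next region had 20 summit reads in the ATRA-labelled list, 40 in POM and 120 in DMSO, and was not called in ATRA+POM. MAPK8 had 9.45, 15.3, 12.6 and 21.8. MAPK9 (JNK2) had no peak in the treated lists, against a pair of weak peaks in DMSO with 19 reads at the gene end.

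The p38 genes differed. MAPK14 (p38 alpha) had 3 peaks in the ATRA-labelled list, 7 in POM, 6 in ATRA+POM and 8 in DMSO, and its strongest fold was 20.1, 23.5, 14.7 and 30.6. The region at its start was called in all 4 lists, and its gene-end peak was missing in the ATRA-labelled list because the peak there began past the 1 kb window. MAPK13 (p38 delta) likewise had a region 1.22 kb from its start, chr6:36131480-36132436, that was called in the ATRA-labelled list, POM and DMSO but reached the window in DMSO alone. The summit reads there were 30 in the ATRA-labelled list and 97 in POM, against 220 in DMSO, and ATRA+POM had no peak. MAPK11 (p38 beta) had no peak in any treated list and, in DMSO, 2 weak peaks in its flank near MAPK12.

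Among the inhibitors of RAS signalling, NF1 and SPRY4 held the shared regions furthest from the median ratio of fold between POM and DMSO. They were picked as extremes, and the share of such regions is given below beside that over all regions. Near its start NF1 had no peak in the ATRA-labelled and ATRA+POM lists and one with 30 reads in POM, 0.839 kb downstream, against a DMSO peak at the start itself with a fold of 3.87 and 58 reads. A gene-body site of NF1 156 kb from the start, chr17:31249807-31251806, was its strongest in the lists other than POM, with 86 summit reads in the ATRA-labelled list, 73 in POM, 51 in ATRA+POM and 534 in DMSO. The fold there was 23.7 in the ATRA-labelled list, 5.43 in POM, 4.11 in ATRA+POM and 30.8 in DMSO. A further region at 219 kb, at an annotated end of EVI2B (a gene that lies within NF1), was called in DMSO alone with 111 reads. In fold enrichment, both lists with POM were low at the site at 156 kb against both lists without it. The ATRA-labelled list was nearly a part of the DMSO list, so the lists without POM are not independent of each other.

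SPRY4 showed the reverse in POM. Its region 8.59 kb from the start, chr5:142315597-142316916, had a fold of 9.74 in the ATRA-labelled list, 44.3 in POM, 14.5 in ATRA+POM and 8.95 in DMSO. A second at 4.33 kb had 36.3 in POM, 6.48 in ATRA+POM and 5.71 in DMSO, with 148, 25 and 24 summit reads. The POM list was the high one at both regions, and ATRA+POM stood nearer to DMSO. At the SPRY4 start the fold was 8.45 in POM and 8.44 in DMSO, with no peak in the ATRA-labelled or ATRA+POM lists.

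SPRED2 had 8 peaks in the ATRA-labelled list, 9 in POM, 13 in ATRA+POM and 14 in DMSO. Upstream of its start by 4.21 kb, chr2:65435843-65437544, the fold was 32.9 in the ATRA-labelled list, 11.7 in POM, 5.62 in ATRA+POM and 37.6 in DMSO. Its region at 42.1 kb had 119 summit reads in POM, 75 in ATRA+POM and 132 in DMSO, and its region at 58.0 kb was called in DMSO alone with 106. SPRED1 had 4, 5, 4 and 2 peaks and, 1.78 kb from its start, a fold of 20.2, 14.1, 12.2 and 22.5. SPRY1 was among the 5 genes with the highest fold in every list, with 55.0 in the ATRA-labelled list, 80.7 in POM, 42.6 in ATRA+POM and 52.4 in DMSO. The SPRY1 peak just upstream of its start had 142 reads in POM, 53 in ATRA+POM and 116 in DMSO. SPRY2 had 9.93, 20.0, 12.9 and 10.6, where DMSO was not the highest.

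The 6 MAP kinase phosphatases had a gene-end peak in every list. DUSP6, a phosphatase of ERK, had a fold of 44.4 in the ATRA-labelled list, 55.6 in POM, 32.9 in ATRA+POM and 80.1 in DMSO, with 114, 535, 293 and 689 summit reads. Its gene lies under one broad region of 8136 bp, chr12:89344394-89352529, that was called as 9 peaks in the ATRA-labelled list, 1 in POM, 2 in ATRA+POM and 1 in DMSO. The covered length at the DUSP6 locus was far more alike, at 9252 bp, 10357 bp, 9660 bp and 10471 bp. DUSP1, an immediate early phosphatase, had a fold of 15.9 in the ATRA-labelled list, 17.5 in POM, 5.90 in ATRA+POM and 20.9 in DMSO just upstream of its start, and ATRA+POM was the lowest. DUSP2 had 12.7, 28.7, 7.82 and 28.2. DUSP4 had 32.8, 57.5, 33.9 and 46.6, and DUSP5 had 13.4, 32.0, 17.8 and 22.1. DUSP5 was called as 3 peaks in the ATRA-labelled list, 3 in POM, 5 in ATRA+POM and 8 in DMSO, and DUSP4 as 8, 3, 5 and 4. DUSP10, which acts on JNK and p38, had a gene-body region 33.6 kb from its start with 35 summit reads in the ATRA-labelled list and 211 in DMSO, and no peak in either list with POM. At its start there were 174 reads in POM and 202 in DMSO, in a region called in no other list.

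**Figure D2:**
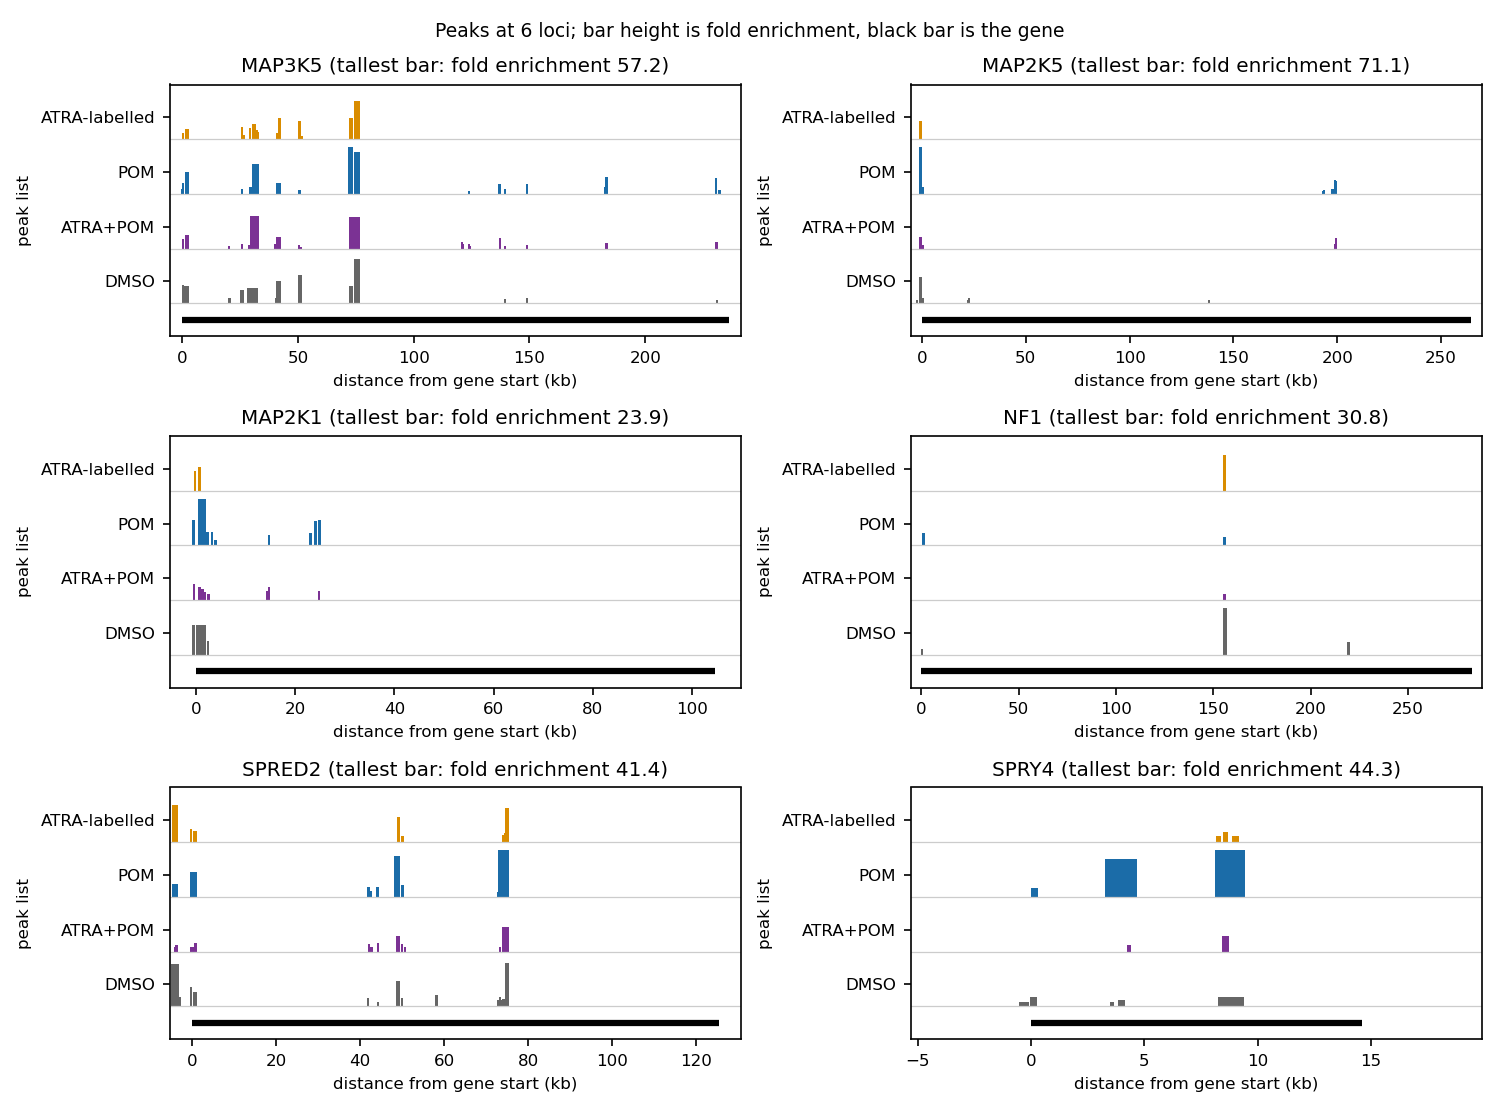
Peaks at MAP3K5, MAP2K5, MAP2K1, NF1, SPRED2 and SPRY4 in the 4 lists, by distance from the gene start (kb); bar height is fold enrichment, scaled in each panel to the value in its title, narrow peaks are widened to stay visible, and the black bar is the gene. Peaks with POM or ATRA+POM and no DMSO peak are seen far into MAP3K5 and MAP2K5 and inside MAP2K1, and the NF1 site at 156 kb is tall in the ATRA-labelled and DMSO rows.

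Counts of peaks per locus depended on how broad peaks were divided, so they are given with the covered bases. In the ATRA-labelled list 13 genes had more peaks than in DMSO (background 14.7%) and 20 had fewer (33.8%), which turned to 15 with more and 10 with fewer when an equal number of strongest peaks was taken from each list. POM had 13 with more (23.0%) and 14 with fewer (21.5%), which became 12 and 7 when peaks within 500 bp were counted as 1. Against DMSO, ATRA+POM had 15 with more (20.6%) and 17 with fewer (30.1%). ATRA+POM against POM gave 11 with more (16.9%) and 14 with fewer (29.2%), or 13 and 12 with equal numbers of peaks. Against the ATRA-labelled list it gave 16 with more (25.3%) and 10 with fewer (17.9%), which turned to 8 and 17 with equal numbers and to 9 and 13 with the stronger 50% of each list. By covered bases, fewer than in DMSO were covered at 37 loci in the ATRA-labelled list (63.3% of all genes), 27 in POM (42.2%) and 37 in ATRA+POM (57.3%). A locus can have fewer only where DMSO has a peak, as at 37 of the 38 loci (97.4%) and 63.4% of all loci. Likewise, a locus can have more only where the treated list has a peak. That held at 89.5% of the 38 loci in the ATRA-labelled list, 89.5% in POM and 84.2% in ATRA+POM. Over all loci it held at 53.2%, 63.9% and 57.8%. The shares over all genes are therefore not a matched background for more or for fewer, in peaks or in bases. More bases were covered at 0 loci in the ATRA-labelled list (0.155%), 10 in POM (25.0%) and 0 in ATRA+POM (8.74%). ATRA+POM covered fewer bases than POM at 32 loci (59.9%) and fewer than the ATRA-labelled list at 15 (22.9%), and more bases at 2 (4.90%) and 19 (37.7%). Summed over the 38 loci, peaks covered 96.0 kb in the ATRA-labelled list, 148.4 kb in POM, 109.5 kb in ATRA+POM and 159.6 kb in DMSO.

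Around the start of the 34 genes with a RefSeq promoter entry, summits fell on either side of the start and seldom just before it. MAP3K1, DUSP4, DUSP5 and PTPN11 had no entry. In the 200 bp directly upstream there were 3 summits in the ATRA-labelled list, 2 in POM, 0 in ATRA+POM and 3 in DMSO. In the next 200 bp upstream there were 9, 9, 10 and 9, and in the first 200 bp downstream 7, 11, 9 and 11. The same dip was present over all 15812 starts, where DMSO had 989 summits directly upstream, 2750 in the next 200 bp and 2849 downstream. A peak within 1 kb was present at 26 of the 34 starts in the ATRA-labelled list, 29 in POM, 25 in ATRA+POM and 32 in DMSO. The start base itself lay inside a peak at 6 of those 26, 11 of 29, 5 of 25 and 16 of 32. Over all starts with a peak within 1 kb, those shares were 22.6% in the ATRA-labelled list, 42.6% in POM, 22.9% in ATRA+POM and 52.4% in DMSO.

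**Figure D3:**
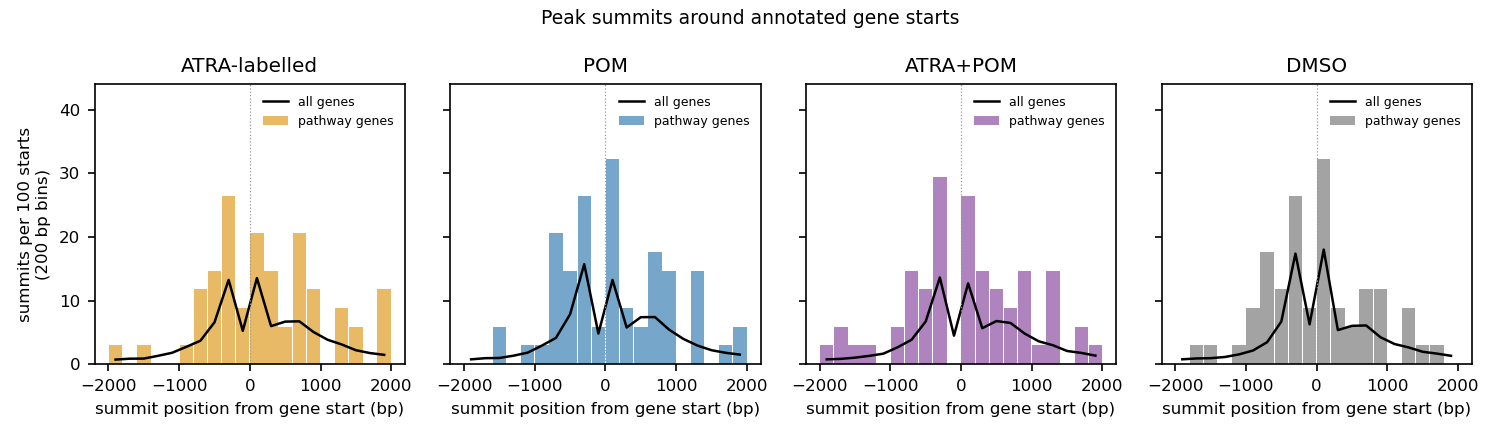
Peak summits per 100 starts in 200 bp bins from 2 kb upstream to 2 kb downstream of the gene start (bp), for the 34 pathway genes with a start (bars) and for all 15812 starts (line), in each list. Both show a dip directly upstream of the start, where the pathway genes had 0 to 3 summits per list.

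The peaks at the 38 loci merged into 177 regions, of which 72 (40.7%, 95% Wilson interval 33.7 to 48.0 for counting error only) were called in all 4 lists, against 28.8% of 67328 regions genome-wide and 33.9% of those at protein-coding loci. Without the ATRA-labelled list, 88 were called in all 3 others, or 49.7% against 37.5% genome-wide. Of the 72, 52 lay at a gene start or end. The next largest set was called in DMSO alone, with 31 regions (17.5%, genome-wide 16.3%, protein-coding loci 16.3%). The POM list alone had 16 (9.04%, genome-wide 14.3%, protein-coding loci 12.4%). ATRA+POM alone had 11 (6.21%, genome-wide 5.23%, protein-coding loci 3.85%). Another 10 regions at 6 genes were in POM and ATRA+POM but not in the other lists (5.65%, genome-wide 9.60%, protein-coding loci 7.37%). Just 1 of those 10 was at a gene start or end. By position, regions at gene starts were called in 45 of 62 cases in the ATRA-labelled list, 56 in POM, 44 in ATRA+POM and 58 in DMSO. In gene bodies the counts were 19, 55, 50 and 55 of 87. Positions were not counted over all regions, so no background stands beside these 2 sets.

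Pairwise, 26 of 131 POM regions at the pathway genes were not called in DMSO (19.8%, all regions 32.9%), and 35 of 140 DMSO regions were not called in POM (25.0%, all regions 31.1%). For ATRA+POM, 21 of 111 were not called in DMSO (18.9%, all regions 27.6%), and 50 of 140 DMSO regions were not called in ATRA+POM (35.7%, all regions 44.9%). Of the 80 ATRA-labelled regions at these genes 0 were absent from DMSO, and 60 of 140 DMSO regions were not called in the ATRA-labelled list (42.9%, all regions 47.3%). Against POM, ATRA+POM had 13 of 111 regions that POM lacked (11.7%, all regions 12.6%) and lacked 33 of 131 (25.2%, all regions 35.3%). Against the ATRA-labelled list it had 38 of 111 more (34.2%, all regions 45.5%) and lacked 7 of 80 (8.75%, all regions 21.7%). The shares over all regions include regions away from protein-coding loci, and pairs were not counted at those loci apart.

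Regions called in both lists of a pair were also ranked by their ratio of fold enrichment, less the median ratio of all shared regions. A limit of 4-fold on this scale was chosen after the values were seen. For POM against DMSO, 3 of 105 shared pathway regions were above it (2.86%, background 2.86%) and 3 below it (2.86%, background 1.68%). Those above were the SPRY4 regions at 4.33 kb and 8.59 kb and the MAP3K5 region at 231 kb, with log2 ratios less the median of 2.58, 2.22 and 2.38. Those below were MAP3K5 at 51.0 kb, NF1 at 156 kb and MAPK13 at 1.22 kb, with -2.79, -2.59 and -2.01. For ATRA+POM against DMSO, the MAP3K1 region at 37.1 kb was above it, with 3.46 (1 of 90 shared regions, 1.11%, background 4.00%). MAP3K5 at 51.0 kb, NF1 at 156 kb and SPRED2 upstream of its start were below it, with -2.50, -2.35 and -2.18 (3.33%, background 1.45%). These last 3 were also the regions below it for ATRA+POM against the ATRA-labelled list, with -2.18, -2.28 and -2.30. They made up 4.11% of 73 shared regions (background 1.88%). Both comparisons share the ATRA+POM library, so the repeat is not independent. Their reference lists are also nearly alike, with 0.00797% of shared regions past the limit on each side. No pathway region was above the limit for ATRA+POM against the ATRA-labelled list (background 2.37%). None passed it on either side for ATRA+POM against POM (backgrounds 0.944% above and 0.376% below), or for the ATRA-labelled list against DMSO (0.00797% on each side).

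**Figure D4:**
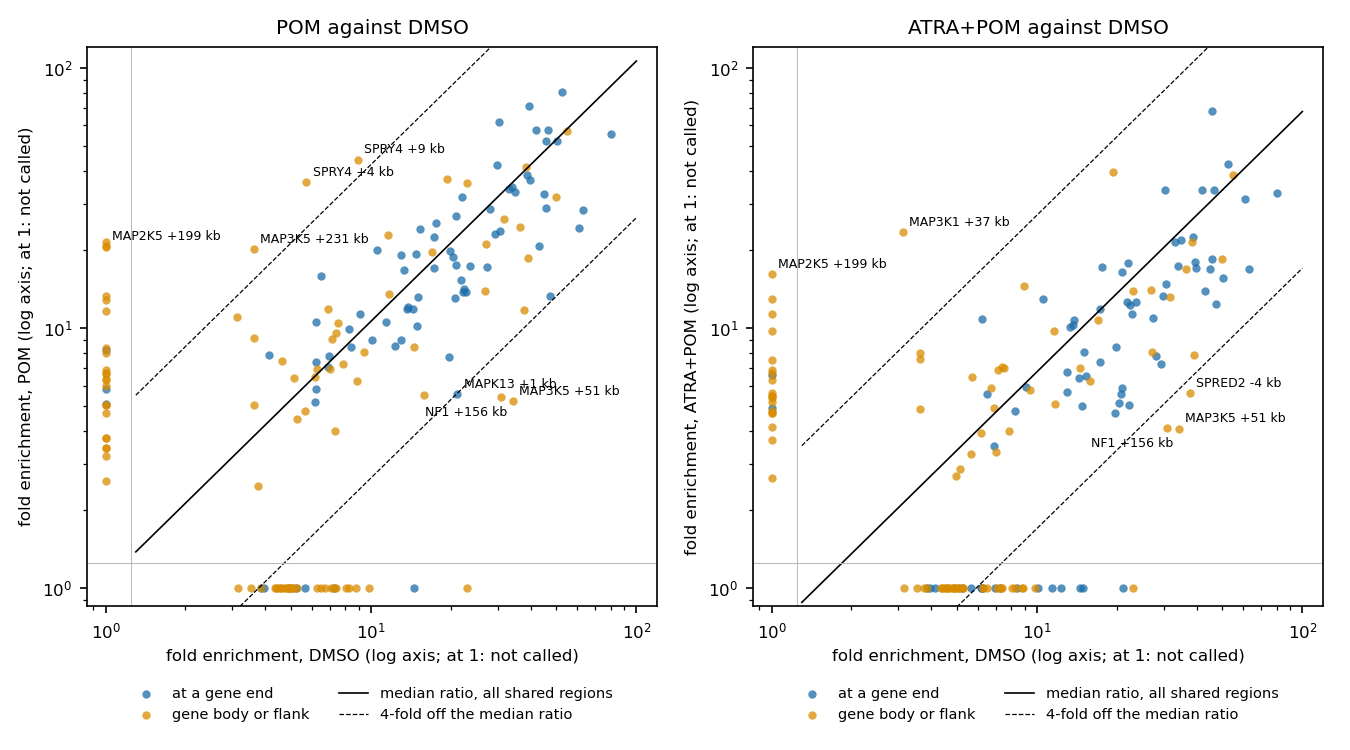
Fold enrichment of each region at the 38 loci in POM (left panel) and ATRA+POM (right panel) against DMSO, on log axes, with regions not called in a list drawn at 1. Blue points lie at a gene end and orange points in a gene body or flank; the solid line is the median ratio of all shared regions and the dashed lines are 4-fold off it. Of the labelled points on shared regions, MAPK13 is the one at a gene end.

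A further 62 genes of the same pathway were counted in the same way. A gene-end peak was present at 34 of them in the ATRA-labelled list, 40 in POM, 34 in ATRA+POM and 42 in DMSO. Of the 38 genes, 30, 33, 29 and 36 had one in the same order, a higher share in every list. Over all genes the shares were 40.0%, 47.9%, 41.3% and 48.8%, and those of the further 62 genes were also above these in every list. The size of the excess at the 38 genes thus does not stand for the pathway as a whole. Of the 42 in DMSO, 8 (19.0%) were missing in the ATRA-labelled list, 2 (4.76%) in POM, namely RRAS2, a RAS relative, and MAPK12, p38 gamma, and 8 (19.0%) in ATRA+POM. None was gained against DMSO. The early response genes EGR1, FOS and JUN, whose transcription MAP kinases switch on, had a gene-end peak in all 4 lists. EGR1 had 2 peaks at its locus in each list. Of the further DUSP genes, DUSP7 and DUSP16 had a gene-end peak in all 4 lists, and DUSP3, DUSP8, DUSP9 and DUSP14 had one in none.

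Of the promoters of the 34 genes with a start, 27 held GGGCGG, the SP factor motif (79.4%), against 58.3% of all 15812 promoters and 70.6% of those of genes with a DMSO gene-end peak. Matches were exact, on either strand, in the 300 bases, and none of the 7 motifs searched contains another. The shares below are given over the 34 genes, over all promoters and over those of genes with a DMSO gene-end peak. TGACGT, part of the cAMP response element, was in 6 (17.6%, 9.64% and 12.7%), among them NF1, where it lies in the lower-case part printed above. CCGGAAG, an ETS motif, was in 4 (11.8%, 14.1% and 22.6%), and CACGTG, the E-box bound by MYC, was in 4 (11.8%, 8.82% and 10.6%). AGGTCA, the core element of retinoic acid and other nuclear receptors, was in 4 (11.8%, 11.8% and 9.54%): BRAF, DUSP2, MAPK3 and SPRY4. TGGGAA, the Ikaros family core, was in 5 (14.7%, 22.8% and 22.1%), and TGANTCA, the AP-1 motif, in 1 (2.94%, 5.70% and 3.74%). A match describes letters only and is not a measured binding site.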

How the data were processed

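ChIP was done once per treatment in OPM-2 cells, and the labels' treatment and library kind put the 8 samples (4 ChIP, 4 input) into groups. Per the submitters' processing notes the build was hg38. The aligner, the peak caller and the antibody were not given in the sources used here. The deposited lists, called per library, give each peak a score, a fold enrichment (a ratio of summit to local background), and its −log10 p and −log10 q, all the authors' values. The deposited summit position, as an offset from the peak start, was used too.

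From fold and p, with 1 added to both reads and background in the fold, whole summit reads within 0.02 came out for 100% of ATRA-labelled, ATRA+POM and DMSO peaks and 99.9982% of POM peaks. Relative depth is the lowest background value that occurs at least 20 times, over the smallest peak width, divided by that of DMSO. Reads scaled to another list's depth start from the list with the most reads for its depth. Both are inferences from the values. Only peaks on chromosomes 1 to 22 and X entered, a shared base counted as overlap, and gene positions, starts and promoters came from RefSeq tables of GRCh38.p14. A gene start is any RefSeq start in the promoter table, and distances run from the outer start of the gene. Where a list had several peaks in a region, the region's fold and summit reads are the highest among them. Fold enrichments were not scaled between libraries, and how weak a peak can be called depends on depth.

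The members and gene lists were chosen with earlier results of these data known. Values are given for DUSP1, DUSP6 and SPRY2, for genes whose gene-end peak was not called in all lists, for the 8 with the widest span of peak counts, for the 5 with the highest fold in any list, for those with no peak in a list, and for regions called in some lists with at least 100 summit reads. The others were added so that every gene is accounted for. Alternatives were an equal number of 36742 strongest peaks per list, the stronger 50%, peaks within 500 bp counted as 1 or merged, other flanks and windows, peak midpoints, a fold of at least 10 and −log10 q. Leaving out the ATRA-labelled list was added after seeing the data. Read recovery and overlap counts were tested on simulated data. Python 3.11.15, numpy 2.4.6, pandas 2.3.3, scipy 1.17.1 and matplotlib 3.10.9 were used.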

Additional observations from a re-analysis of the deposited data

Results flagged for a closer look

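At 10 genes the number of peaks per locus moved one way with a compound alone and the other way when it was added to the other compound, with 1 library each, and the difference between the contrasts was not tested. Each value below is the change in the presence of the other compound minus the change in its absence, in peaks. For POM, added to ATRA against added to DMSO, the differences were -7 at NRAS, 3 at SOS2, 3 at MAP3K1, -2 at MAP2K2, 4 at MAPK14, -2 at MAPK13, 10 at SPRED2 and 7 at DUSP5. For ATRA, added to POM against added to DMSO, they were -7 at NRAS, 4 at SOS1, 3 at SOS2, -2 at MAPK13, -3 at SPRED1, 10 at SPRED2 and 7 at DUSP5. Both contrasts use the same 4 libraries, and the ATRA-labelled one is the shallow library. With peaks of a list within 500 bp counted as 1, opposite changes were found at 3 genes for POM, of which MAP2K2 and SPRED2 were among those above, and at 3 genes for ATRA, of which 0 were.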

How the results depend on the processing

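Of 129 values recomputed under an alternative, 87 stayed within 1.5 times the reported count, and 42 moved further. These are counts without a sign of their own, but the balance of loci with more against fewer peaks turned in 4 of the 5 comparisons under at least 1 alternative, and in ATRA+POM against DMSO it came to 15 and 15 over gene bodies alone. With a fold enrichment of at least 10, regions fell to 35 in all 4 lists, 8 in POM, ATRA+POM and DMSO, 6 in POM and DMSO, 4 in POM and ATRA+POM, 7 in DMSO alone, 9 in POM alone and 2 in ATRA+POM alone, and those in the ATRA-labelled list and DMSO came to 4. With peaks within 500 bp merged, the sets held 15 regions in DMSO alone, 5 in POM alone, 5 in ATRA+POM alone, 10 in POM, ATRA+POM and DMSO, and 4 in POM and DMSO. With an equal number of strongest peaks they held 16 in DMSO alone, 9 in POM alone, 5 in POM, ATRA+POM and DMSO, and 5 in POM and DMSO. In that setting, 4 gene-end peaks were missing in ATRA+POM against the ATRA-labelled list, the ATRA-labelled list against DMSO had 15 loci with more peaks and 10 with fewer, and ATRA+POM against the ATRA-labelled list had 17 loci with fewer and 8 with more. The 7 genes missing a gene-end peak in ATRA+POM against DMSO then were MAP2K2, MAP2K4, MAP2K6, MAPK3, MAPK13, SPRY4 and DUSP1.

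With the stronger 50% of each list, gene-end peaks missing in ATRA+POM numbered 11 against DMSO, 7 against POM and 7 against the ATRA-labelled list, and those gained numbered 1, 1 and 6. More peaks were then found at 8 loci in the ATRA-labelled list and 8 in ATRA+POM, each against DMSO, and at 9, with fewer at 13, in ATRA+POM against the ATRA-labelled list. By peak midpoint, gene-end peaks gained were 2 for the ATRA-labelled list, 1 for POM and 2 for ATRA+POM, each against DMSO, 2 for ATRA+POM against POM and 0 against the ATRA-labelled list, and a window of 3000 bp also gave 0 for the last. With peaks within 500 bp counted as 1, fewer peaks were found at 13 loci in the ATRA-labelled list and 7 in POM (with more at 12), each against DMSO, and at 5 in ATRA+POM against the ATRA-labelled list. More were found at 8 in the ATRA-labelled list against DMSO and at 6 in ATRA+POM against POM. By −log10 q, 3 of the 5 strongest genes in DMSO were among the 5 by fold. The cause of these shifts was not tested. No paired analysis was possible because each treatment has 1 ChIP library and no value comes from a test. Depth limits the ATRA-labelled list most, at 0.133 of DMSO.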
